A study of Mus musculus with 12 samples.

Results

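The ADAMTS proteases examined here are 7 secreted metalloproteases named by symbol, ADAMTS1, ADAMTS2, ADAMTS4, ADAMTS5, ADAMTS9, ADAMTS10 and ADAMTS17. A gene was taken wherever the deposited table lists that symbol at a site. In all, 6 of the 7 were found among 13954 listed symbols, with 6 of 13642 above the lesion and 5 of 12335 below it. ADAMTS4 was listed only above the lesion, and ADAMTS17 was listed at neither site. The genes were chosen by family name, but with their pooled values at both sites known, so every value of theirs is a description.

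The libraries came from male mice expressing human ApoE4, operated at 4 months of age with a motor-incomplete contusion at thoracic level 9, and RNA was taken at 14 days. There were 12 libraries in 4 groups of 3, with synj1+/+ mice (both synj1 alleles normal) and synj1+/- mice (1 inactive allele) each sampled on the rostral and the caudal side of the injury, called above and below the lesion. All 4 groups therefore share the ApoE4 background, the injury, the sex and the time, and none of them is uninjured. Each mouse carried its synj1 genotype in every cell, and each library held a whole cord segment next to the lesion with all its cell types. The table gives 1 pooled value per gene and group, so neither a spread between libraries nor a library's depth could be computed from it. The authors' own test columns were not used, and each comparison below sets 2 pooled values side by side with no test. A fold of 1.5 was used to count a gene as different.

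ADAMTS proteases are zinc-dependent enzymes that cut matrix proteins outside the cell, and thrombospondin-type repeats and other domains behind the catalytic part hold them to the matrix. ADAMTS1, ADAMTS4, ADAMTS5 and ADAMTS9 cut aggrecan, versican, brevican or related proteoglycans, the chondroitin sulfate carriers of perineuronal nets and of the scar that forms around a cord lesion. ADAMTS2 instead removes the amino-terminal propeptide of procollagens, and ADAMTS10 and ADAMTS17 associate with fibrillin microfibrils, so proteoglycan cleavage describes 4 of the 7. In mouse central nervous tissue, ADAMTS4 is known as a gene of mature oligodendrocytes.

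The listed values are read as FPKM, the fragment counts that Cufflinks scales by transcript length and by sequencing depth, with 1 added. They also rise with the number of transcripts annotated for a gene. In the labelled synj1+/+ group above the lesion the median listed value was 20.4 for 6908 genes with 1 curated RefSeq transcript and 419 for 147 genes with 10 or more. ADAMTS10 has 13 such transcripts and each of the other proteases has 1, so levels were compared between groups and never between genes. Sums of listed values, given for some marker lists, weigh each gene by its listed level.

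SYNJ1 itself was listed at 1905 in the labelled synj1+/+ group and 2404 in the labelled synj1+/- group above the lesion, and at 1847 and 2593 below it. The targeted gene thus runs against the labels at both sites, and every genotype direction given here rests on those labels. The tissue carried the markers of cord. All 6 astrocyte markers, GFAP among them, were listed at both sites, as were SNAP25 and other neuron markers, and the position gene HOXC8 had a listed value of 78.6 to 117 over the 4 groups.

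**Figure D1:**
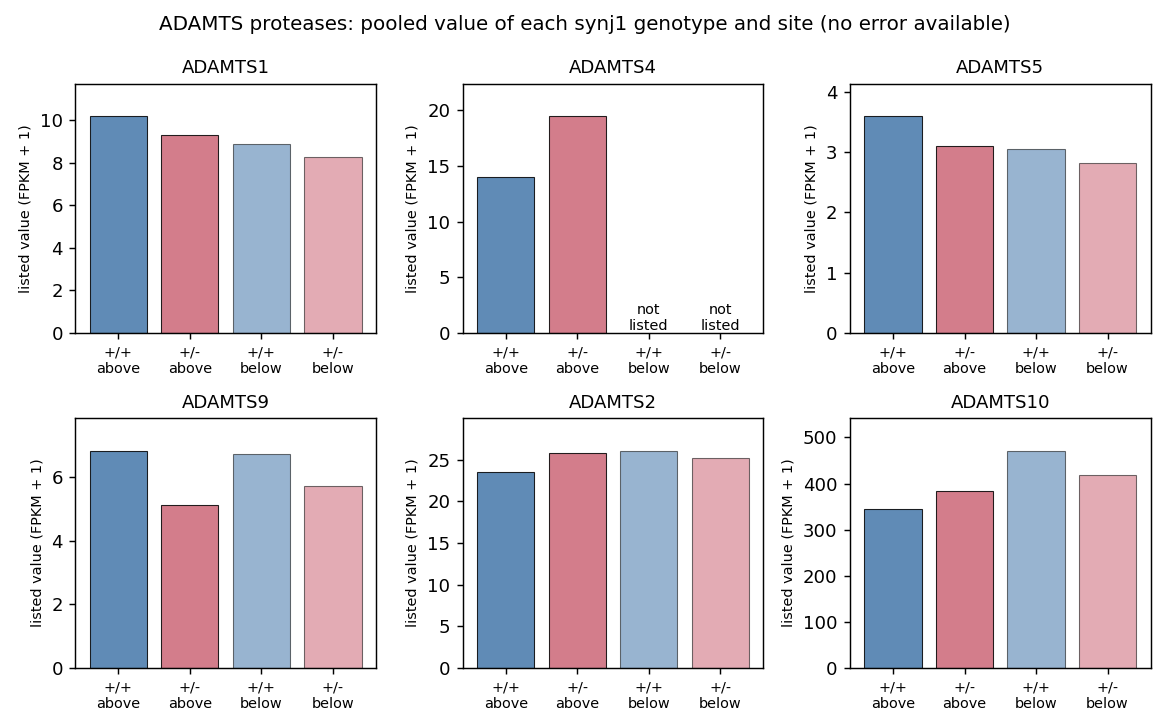
Listed value (FPKM + 1, vertical axes from 0) of each of the 6 listed ADAMTS proteases in the 4 groups, 1 bar per pooled group value with no error available. ADAMTS4 has bars only above the lesion, at 14.0 and 19.5, and ADAMTS9 has its lowest bar, 5.12, in the labelled synj1+/- group above the lesion.

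None of the proteases differed by 1.5-fold between the genotypes at either site. Above the lesion 0 of 6 were higher and 0 of 6 lower past that fold, where 0.792% of all genes were higher and 1.93% lower. Below the lesion 0 of 5 were higher and 0 of 5 lower, where the shares over all genes were 1.16% and 4.37%. Among 5 or 6 genes these shares come to less than 1 gene, so counts of 0 are no result about the proteases. The median log2 ratio of the labelled synj1+/- group over the labelled synj1+/+ group was 0.00 above the lesion and -0.12 below it, against 0.00 and 0.01 over all genes. The median above the lesion was 0.15 when genes with a mean FPKM under 10 were left out, which kept only 3 of the proteases.

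ADAMTS4 had the largest difference of the 6. Rostral to the injury it was listed at 14.0 with the synj1+/+ label and at 19.5 with the synj1+/- label. That is 1.39-fold higher, a log2 ratio of 0.48, and 4.54% of all genes above the lesion lay as far from equality in either direction. ADAMTS4 lies on chromosome 1 of GRCm38 from 171250421 to 171260637, on the forward strand. Of the 7 mature oligodendrocyte markers, 3 were listed above the lesion, and the genotype log2 ratio was -0.18 for MOG, -0.05 for MOBP and 0.23 for OPALIN. These markers thus had ratios of both signs, and OPALIN had the sign of ADAMTS4. Their summed listed values, nearly all from MOBP, were 11211 above the lesion with the synj1+/+ label and 10816 with the synj1+/- label. The part of oligodendrocyte number in the ADAMTS4 values was not tested. In bulk tissue, fewer cells of a type and less RNA per cell cannot be told apart.

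ADAMTS9, which cuts versican and aggrecan, was lower in the labelled synj1+/- group at both sites. Its listed values were 6.82 and 5.12 above the lesion and 6.72 and 5.71 below it, with the synj1+/+ label first. The log2 ratios were -0.41 above and -0.24 below, and 6.60% and 31.9% of all genes at those sites lay as far from equality. ADAMTS9 therefore had its higher values in both labelled synj1+/+ groups, which differed from each other by a log2 ratio of only -0.02. It lies on chromosome 6 from 92772699 to 92943492 on the reverse strand.

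ADAMTS1 and ADAMTS5 are neighbours on the reverse strand of chromosome 16. ADAMTS1 spans 85793827 to 85803113 and ADAMTS5 spans 85856173 to 85901828, with 53.1 kb between them. SYNJ1, the targeted gene, is also there (90936092 to 91011308), and 5.13 Mb separate it from ADAMTS1 and 5.03 Mb from ADAMTS5. ADAMTS1, an aggrecan and versican protease, had listed values of 10.2 and 9.30 above the lesion and 8.89 and 8.27 below it, with the synj1+/+ label first. ADAMTS5, a major aggrecan protease, had listed values of 3.59 and 3.10 above and 3.06 and 2.81 below. Both genes were lower in the labelled synj1+/- group at each site and lower below the lesion than above it in each genotype, so both ran in the same order over the 4 groups. The genotype log2 ratios were -0.13 and -0.10 for ADAMTS1 and -0.21 and -0.12 for ADAMTS5, above and below the lesion. These differences were small beside those of other genes, since 43.5% of all genes above the lesion lay as far from equality as ADAMTS1 and 24.6% as far as ADAMTS5.

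Endothelial cells are among the cells known to make ADAMTS1 and ADAMTS9. The 6 endothelial markers had summed listed values of 176 and 185 above the lesion and 219 and 210 below it, with the synj1+/+ label first. With the synj1+/- label both proteases were lower at both sites, while the sum was higher above the lesion and lower below it. Single markers had both directions. By any amount, 1 of the 6 was lower above the lesion and 4 below it, where 51% and 47.2% of all genes were. The part of cell number in these values was not tested.

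ADAMTS2 was almost level over the 4 groups. Its listed values were 23.6 and 25.8 above the lesion and 26.1 and 25.2 below it, with the synj1+/+ label first, and its highest group was 1.11-fold over its lowest. The genotype log2 ratio was 0.13 above and -0.05 below, and 82.7% of all genes below the lesion lay as far from equality. ADAMTS2 lies on chromosome 11 from 50602084 to 50807573 on the forward strand.

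The procollagen chains that ADAMTS2 can process did not stay level. COL1A1 was listed at 4.20 and 2.88 above the lesion and at 47.2 and 6.29 below it, with the synj1+/+ label first. COL1A2 was listed at 9.32 and 7.26 above and 75.7 and 11.6 below. COL3A1 was listed at 5.26 and 1.73 above and 69.9 and 7.91 below. The labelled synj1+/+ group below the lesion stood well over the other 3 groups for each chain, while ADAMTS2 in that group was only 1.03-fold over the labelled synj1+/- group there. All 5 procollagen chains listed below the lesion, COL5A1 and COL5A2 included, were lower past 1.5-fold in the labelled synj1+/- group, with a median log2 ratio of -2.71, where 4.37% of all genes were lower past that fold. Above the lesion 1 of 5 was, COL3A1 with a log2 ratio of -1.60, where 1.93% of all genes were lower past the fold. A pseudocount of 10 brought COL3A1 to -0.41, inside the fold, and no pseudocount brought COL1A1 from -0.54 to -0.77, past it. Below the lesion COL5A1 was listed at only 11.4 and 5.82 and COL5A2 at 5.63 and 3.14, with the synj1+/+ label first. With a pseudocount of 10 neither passed the fold there, so the count of 5 depends on the pseudocount. All 6 fibroblast markers were lower past the fold below the lesion, where 4.37% of all genes were. Those listed only there had their higher value in the labelled synj1+/+ group and may have been listed because of it. The 3 listed in every group, DCN, LUM and ISLR, had the directions of COL1A1, COL1A2 and COL3A1 in each comparison. COL5A1 and COL5A2 went the other way between the genotypes above the lesion, with log2 ratios of 0.26 and 0.35. COL5A2 also did so between the sites with the synj1+/- label, at -0.40. The summed listed values of DCN, LUM and ISLR were 22.9 and 17.6 above and 264 and 37.9 below. The part of fibroblast number was not tested.

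**Figure D2:**
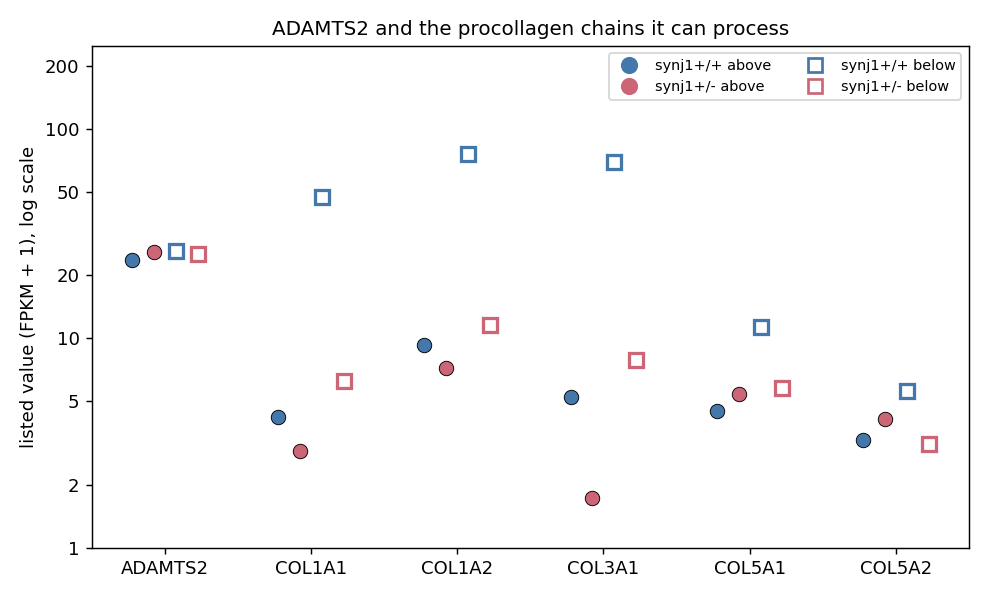
Listed value (FPKM + 1, log axis) of ADAMTS2 and 5 procollagen chains in the 4 groups, 1 point per pooled group value. ADAMTS2 stays between 23.6 and 26.1, while COL1A1, COL1A2 and COL3A1 have their highest points in the labelled synj1+/+ group below the lesion, at 47.2, 75.7 and 69.9.

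The promoters of ADAMTS2 and of 2 of these chains are shown because their transcripts differed so unevenly between the groups. Each runs 5′ to 3′ along the gene, from 250 bases before the RefSeq start to 50 after it, on GRCm38.p6. Capitals mark matches on either strand to TATAAA (the TATA box), GGGCGG (the GC box) or TGANTCA (the AP-1 site), and overlapping matches were each counted. The names stand for these letters wherever they lay in the window, and whether any match is a working site was not tested. ADAMTS2 is chr11:50601835-50602134 on the forward strand, COL1A2 is chr6:4505368-4505667 on the forward strand, and COL3A1 is chr1:45311288-45311587 on the forward strand.
ADAMTS2: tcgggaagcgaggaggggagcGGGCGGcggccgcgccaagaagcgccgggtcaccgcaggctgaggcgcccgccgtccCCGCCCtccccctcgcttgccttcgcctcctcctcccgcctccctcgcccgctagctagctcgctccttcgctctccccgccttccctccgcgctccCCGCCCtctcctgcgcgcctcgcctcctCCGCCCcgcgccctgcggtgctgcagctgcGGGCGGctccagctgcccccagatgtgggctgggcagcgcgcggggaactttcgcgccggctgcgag
COL1A2: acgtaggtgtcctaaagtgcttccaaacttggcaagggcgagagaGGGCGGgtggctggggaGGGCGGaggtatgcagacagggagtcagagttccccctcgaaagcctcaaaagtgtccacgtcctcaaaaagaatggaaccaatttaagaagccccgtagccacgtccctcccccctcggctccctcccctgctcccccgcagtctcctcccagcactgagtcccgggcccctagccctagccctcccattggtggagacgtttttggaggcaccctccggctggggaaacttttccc
COL3A1: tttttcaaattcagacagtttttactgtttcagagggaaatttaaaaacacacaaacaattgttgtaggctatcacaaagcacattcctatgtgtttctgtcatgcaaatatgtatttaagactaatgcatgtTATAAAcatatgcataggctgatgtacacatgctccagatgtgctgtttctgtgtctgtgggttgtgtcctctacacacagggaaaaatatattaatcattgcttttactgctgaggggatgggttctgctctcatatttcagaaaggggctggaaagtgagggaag
The ADAMTS2 promoter was 77.3% G and C, with 41 CpG dinucleotides, 5 GC boxes and no TATA box. The COL1A2 promoter was 61.0% G and C with 2 GC boxes and no TATA box, and the COL3A1 promoter was 37.7% G and C with 1 TATA box, no GC box and no CpG. Over all 32851 promoters of this length, the median was 52.7% G and C, 35.7% held a GC box, 13.6% a TATA box and 7.81% an AP-1 site. The table also held ADAMTS1, with 1 TATA box and 3 GC boxes, ADAMTS9, with 1 GC box, and ADAMTS17, with neither, so 4 of the 7 proteases were matched. None of these 4 windows held an AP-1 site.

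ADAMTS10, a microfibril-associated protease, had genotype ratios of opposite sign at the sites, as ADAMTS2 did. Its listed values were 346 and 384 above the lesion and 471 and 419 below it, with the synj1+/+ label first. The log2 ratio was 0.15 above and -0.17 below, and the difference of -0.32 between them was matched or exceeded by 20.2% of all genes listed at both sites. With the synj1+/+ label ADAMTS10 was 1.36-fold higher below the lesion than above it, and 9.15% of all genes lay as far from equality in that comparison. In the labelled synj1+/- group the same comparison gave 1.09-fold. Values above and below the lesion were scaled separately by the authors. The median log2 ratio of all genes between the sites was 0.00 with the synj1+/+ label and 0.02 with the synj1+/- label. Such a median describes all genes together and not ADAMTS10, and the part of scaling in its values was not tested. ADAMTS10 lies on chromosome 17 from 33524204 to 33553782 on the forward strand.

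Between the sites, no protease differed by 1.5-fold in either genotype. With the synj1+/+ label, 0 of 5 were higher below and 0 of 5 lower, against shares over all genes of 3.24% and 1.36%. With the synj1+/- label, 0 of 5 passed in either direction, where the shares were 1.43% and 0.832%. Below the lesion all 5 listed proteases had the lower value with the synj1+/- label, by log2 ratios from -0.24 to -0.05, where 47.2% of all genes were lower by any amount. Above the lesion 3 of 6 were lower by any amount, where 51% of all genes were. From above to below the lesion 3 of 5 were lower in each genotype, where the shares over all genes were 50.2% with the synj1+/+ label and 44.5% with the synj1+/- label.

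A smaller difference, a log2 ratio of 0.32, was passed by 1 protease upward above the lesion (ADAMTS4, where 4.18% of all genes passed it) and by 1 downward (ADAMTS9, where 7.43% did). Below the lesion 0 of 5 passed it upward and 0 of 5 downward, where 8.07% and 11.5% of all genes did. Between the sites with the synj1+/+ label, 1 of 5 was higher below the lesion by that much (ADAMTS10, where 10.2% were) and 0 of 5 lower, where 7.79% were. With the synj1+/- label 0 of 5 were higher and 0 of 5 lower between the sites, where 6.5% and 4.53% of all genes were.

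Partners of ADAMTS10 in the microfibril were lower below the lesion in the labelled synj1+/- group, by widely different amounts. FBN1, the main fibrillin, was listed only below the lesion, at 9.11 in the labelled synj1+/+ group and 3.51 in the labelled synj1+/- group. Of the 10 microfibril partners, 6 were lower past 1.5-fold below the lesion, where 4.37% of all genes were, and none higher, with a median log2 ratio of -0.99. MFAP5 had the lowest, -3.09, and LTBP4 the highest, -0.02. Of the 6, FBN1, FBN2, LTBP2 and MFAP5 were listed only below the lesion, and MFAP2 and FBLN5 at both sites. Those listed only below had their higher value in the labelled synj1+/+ group there and may have been listed because of it. The count and the median of the list therefore rest in part on such genes. The median was -0.45 with a pseudocount of 10 and -0.46 without genes of a mean FPKM under 10, both inside 1.5-fold. Above the lesion 6 of the 10 were listed and 0 passed the fold, where 0.792% of all genes were higher and 1.93% lower past it. MFAP2 was farthest there, at a log2 ratio of -0.41.

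Other members of the family were set beside these proteases. Of 12 further ADAMTS genes, 4 were listed, ADAMTS3, ADAMTS6, ADAMTS16 and ADAMTS20, and 0 of 4 passed the fold at either site. Over all genes 0.792% were higher and 1.93% lower past it above the lesion, and 1.16% and 4.37% below. Counts of 0 among so few genes are no result about them. The farthest were ADAMTS3 above the lesion, at a log2 ratio of -0.30, and ADAMTS20 below it, also at -0.30. ADAMTS-like proteins share the thrombospondin repeats but lack the protease part. Here 2 genes were lower past the fold at both sites, where 1.93% of all genes above the lesion and 4.37% below it were. ADAMTSL2, which binds fibrillin and a latent TGF-beta binding protein, was listed at 30.0 and 16.03 above the lesion and 45.0 and 23.0 below it, with the synj1+/+ label first. ADAMTSL3 was listed at 10.4 and 6.14 above and 6.92 and 3.72 below. Their log2 ratios were -0.90 and -0.97 for ADAMTSL2 and -0.76 and -0.90 for ADAMTSL3, which a pseudocount of 10 brought to -0.36 and -0.32, inside 1.5-fold. The list held 6 listed genes above the lesion and 5 below, and its other genes stayed within 1.5-fold, with median log2 ratios for the whole list of 0.05 and -0.14.

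**Figure D3:**
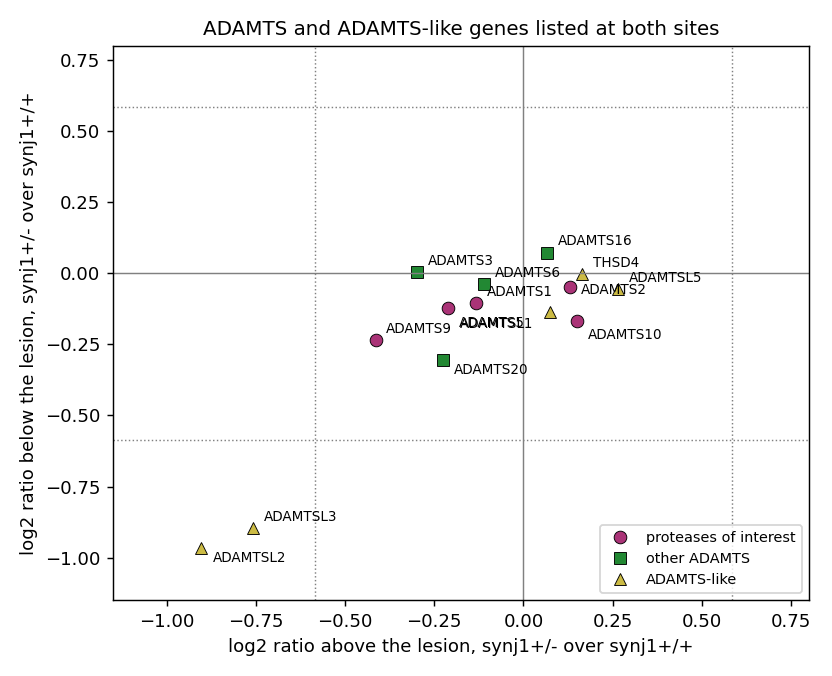
Genotype log2 ratio, synj1+/- over synj1+/+ as labelled, above the lesion (horizontal) and below it (vertical) for ADAMTS and ADAMTS-like genes listed at both sites, 1 point per gene, with dotted lines at 1.5-fold. The ADAMTS proteases lie within the dotted lines, and ADAMTSL2 and ADAMTSL3 lie beyond them at the lower left.

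Proteoglycan substrates of these proteases and partner proteins were also set beside them. VCAN (versican) was listed at 38.5 and 33.5 above the lesion and 37.6 and 33.5 below it, with the synj1+/+ label first. NCAN (neurocan) was listed at 32.7 and 26.8 above and 23.6 and 22.6 below, and ACAN (aggrecan) at 9.04 and 8.55 above and 9.48 and 9.90 below. BCAN (brevican), the substrate most often studied with ADAMTS4, was listed only above the lesion, at 590 and 598. Above the lesion 0 of 13 listed genes passed the fold, where 0.792% of all genes were higher and 1.93% lower past it. TNR, a tenascin of perineuronal nets, was farthest at a log2 ratio of -0.47. Below the lesion 1 of 11 did, BGN (biglycan), at a log2 ratio of -1.75, where 4.37% of all genes were lower past the fold. At such shares, counts of 0 and 1 are no result about these genes. By any amount, 10 of 13 were lower above the lesion and 8 of 11 below it, where 51% and 47.2% of all genes were. The list medians were -0.12 above and -0.16 below.

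TIMP3, the main tissue inhibitor of ADAMTS4 and ADAMTS5, had listed values of 39.0 and 38.04 above the lesion and 48.8 and 40.2 below it, with the synj1+/+ label first. TIMP1, which mainly inhibits matrix metalloproteinases, was the only inhibitor past the fold, with 45.2 and 18.7 below the lesion, a log2 ratio of -1.27, where 4.37% of all genes were lower past it. Its values above were 23.7 and 19.1. A2M was farthest above the lesion, at a log2 ratio of -0.34. The inhibitor list had 0 of 4 genes past the fold above, where 0.792% of all genes were higher and 1.93% lower past it. It had 1 of 5 past the fold below. The median log2 ratios of the list were -0.17 above and -0.28 below.

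Of genes whose products activate, bind, glycosylate or clear ADAMTS proteases, 0 of 10 passed 1.5-fold above the lesion and 0 of 7 below. Over all genes 0.792% were higher and 1.93% lower past it above, and 1.16% and 4.37% below. At such shares, counts of 0 are no result about these genes. LRP1, the receptor that takes up ADAMTS4 and ADAMTS5, was listed at 120 and 109 above and 152 and 126 below, with the synj1+/+ label first. FURIN, which cuts the prodomain, was listed only above the lesion, at 102 and 98.1. FN1 was farthest above, at a log2 ratio of -0.53, and SDC4 below, at -0.43. The list medians were -0.10 above and 0.08 below.

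**Figure D4:**
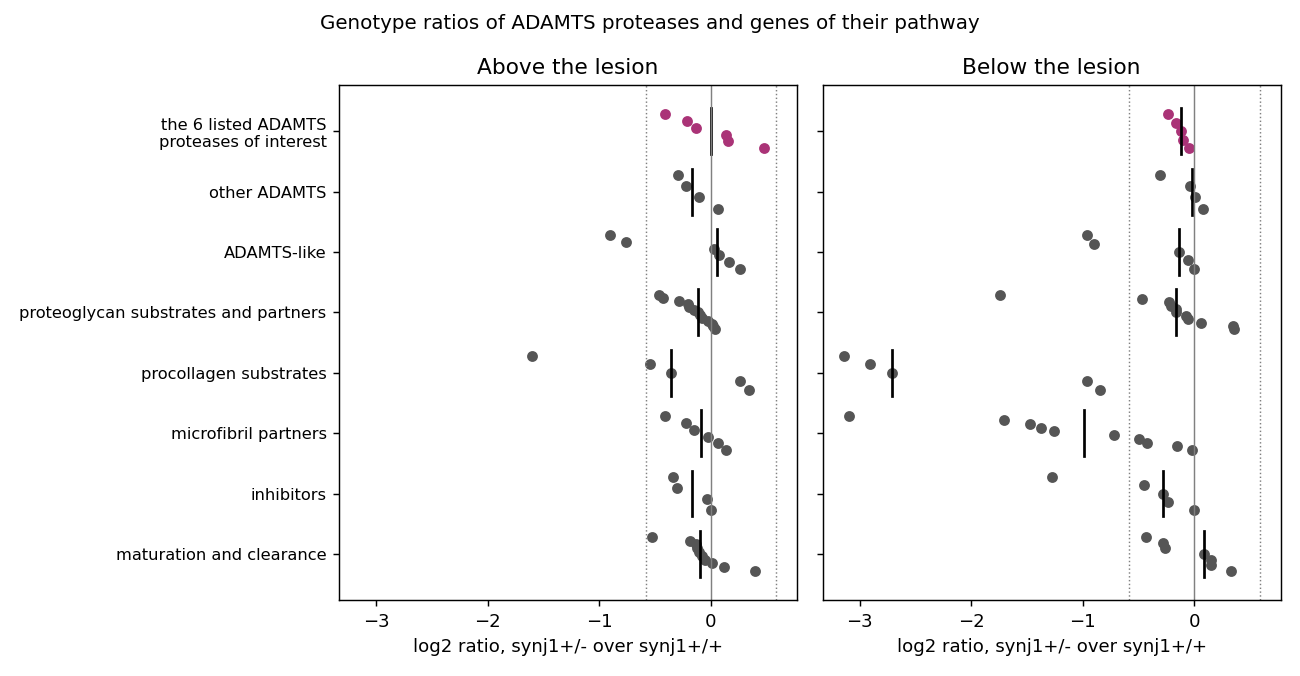
Genotype log2 ratio, synj1+/- over synj1+/+ as labelled, of the 6 listed ADAMTS proteases and 7 lists of related genes above (left) and below (right) the lesion, 1 point per gene, black bars at list medians and dotted lines at 1.5-fold. The proteases lie between -0.41 and 0.48 above and between -0.24 and -0.05 below, while the medians of the procollagen and microfibril lists below the lesion are -2.71 and -0.99.

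Of the proteases, ADAMTS2 and ADAMTS10 were listed at both sites with a mean FPKM of at least 10, and genes of like pattern were sought for them over the 4 groups. Likeness was the Euclidean distance between log2 values centred per gene, over 9418 other genes. SRRD, SNX17 and MRPS33 lay nearest to ADAMTS2, with SRRD at 0.0128, where ADAMTS2 itself lay only 0.113 from a flat line. RPL17-PS10, SEC13 and RPS13 lay nearest to ADAMTS10, with RPL17-PS10 at 0.0164. Within the 77 genes of the lists, KCNJ8 and TIMP2 were nearest to ADAMTS2, and RGS5 and LTBP4 to ADAMTS10. With 4 values per gene, many genes lie close to any such pattern.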

How the data were processed

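Bulk RNA-seq of mouse spinal cord was analysed in 12 libraries, with 3 per genotype and site as labelled. The labels do not say whether the segments above and below the lesion came from the same mice. The paper counts 3 animals per genotype for RNA-seq, so the sites may not be independent sets of mice. The authors reduced the reads of each site at random to those of its smallest library and, per the labels' processing notes and the Methods, used STAR 2.5.4b, bowtie2, samtools and Cuffdiff 1.3.0 on GRCm38.p6 with upper quartile normalization. The deposited table has 25985 rows, each with 1 value per genotype group at 1 site. The file does not name the unit. The values were read as FPKM, which the authors' program writes, plus 1, because the lowest is exactly 1. The authors' own fold changes, p-values and q-values, in this table and in a shorter list, were not used.

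Each comparison is a log2 ratio of 2 pooled values on the log2(FPKM + 1) scale, which understates the change of low genes. Symbols listed more than once at a site were left out (3 symbols). A fold of 1.5 was counted as a difference, and the share of all genes past it is given beside the counts of proteases and of the lists. No test was run, since 1 value per group allows none and the authors' test results were set aside, and the table gives neither the depth nor the precision of a library. The alternatives were no pseudocount, a pseudocount of 10, genes with a mean FPKM under 10 left out, centring on the median of all genes, and a fold threshold set lower (a log2 ratio of 0.32) or at 2.

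Genes named are the 7 proteases, SYNJ1, fixed genes of the lists (VCAN, TIMP3, BCAN, TIMP1, NCAN, COL1A1, ACAN, COL1A2, COL3A1, FBN1, LRP1 and FURIN), the gene of each list farthest from equality at each site, and the genes of like pattern (3 over all genes and 2 over the lists). COL5A1, COL5A2, ADAMTSL3, ADAMTS6, ADAMTS16, HOXC8, SNAP25, FBN2, LTBP2, FBLN5, LTBP4, DCN, ISLR and MOBP were named after their values were seen. The result of 1 marker list is not reported here. The proteases and lists were chosen with earlier results of these data known. Positions are from the GENCODE annotation of GRCm38 and promoters from RefSeq on GRCm38.p6. Python 3.11.15, numpy 2.4.6, pandas 2.3.3 and matplotlib 3.10.9 were used, and the ratios and counts were tested on simulated data.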

Additional observations from a re-analysis of the deposited data

How the results depend on the processing

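Over the 6 alternatives, 45 of the 48 recomputed counts of proteases past the fold were as reported. Each reported count was 0, and a fold of 2, a pseudocount of 10 or leaving out low genes could not raise it. Under those alternatives the agreement was therefore fixed in advance. With the lower threshold, a log2 ratio of 0.32, 1 protease was higher above the lesion (ADAMTS4, where 4.18% of all genes were), 1 was lower there (ADAMTS9, where 7.43% were), and 1 was higher below than above with the synj1+/+ label (ADAMTS10, where 10.2% were). Direction and side of 1.5-fold held in all 89 recomputed single values of the proteases. For a ratio of 2 groups, much of that was fixed in advance. Another pseudocount cannot turn its direction, and leaving out low genes does not change the ratio of a kept gene. The sign of the median of the proteases did not hold. Leaving out genes of a mean FPKM under 10 kept only 3 proteases above the lesion, and only 2 between the sites, ADAMTS2 and ADAMTS10. That median was then 0.15 rather than 0.00 above the lesion. Between the sites it was 0.30 rather than -0.02 with the synj1+/+ label and 0.05 rather than -0.03 with the synj1+/- label. Above the lesion it was also 0.02 with a pseudocount of 10 and 0.0036 when centred. The log2 ratio of ADAMTS4 ranged from 0.31 to 0.51 and that of ADAMTS9 above the lesion from -0.50 to -0.16. With a pseudocount of 10, ADAMTSL3, at -0.36 and -0.32, no longer passed 1.5-fold above or below the lesion, nor did COL3A1 above it, at -0.41. COL5A1 and COL5A2 no longer passed below the lesion under that pseudocount. With no pseudocount COL1A1 passed above the lesion, at -0.77. The procollagen list kept a median log2 ratio below the lesion between -2.91 and -1.88, and that of the microfibril list ranged from -1.14 to -0.45. Leaving out a replicate could not be done, because each value pools the libraries of a group. No paired analysis was possible because the pooled columns carry no replicate and the groups share no replicate number. The table gives no depth, so the low values of ADAMTS5 have no stated precision.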

Other observations

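Marker lists of cell types not set beside a protease above gave the following values. Over all genes, 0.792% were higher and 1.93% lower past 1.5-fold above the lesion, and 1.16% and 4.37% below it. Of the microglia and macrophage markers, 1 of 6 was lower past 1.5-fold above the lesion and 3 of 5 below it in the group labelled synj1+/-, with median log2 ratios of -0.42 and -0.64, and the farthest were C1QA at -0.59 above and AIF1 at -0.93 below. Neuron markers had medians of 0.11 above and 0.24 below, with 0 of 6 and 0 of 5 past the fold, and RBFOX3 (0.26) and SYT1 (0.54) were farthest. Astrocyte markers had medians of -0.21 at both sites, with 0 of 6 past the fold at each, and GFAP (-0.29) and AQP4 (-0.40) were farthest. The erythroid markers were higher past the fold in 5 of 5 above the lesion, with a median of 2.17, and in 1 of 5 below it, with a median of 0.37, and HBB-BT (2.27) and ALAS2 (0.65) were farthest. Pericyte and smooth muscle markers had medians of 0.23 above and -0.16 below, and oligodendrocyte precursor markers -0.13 and -0.25, with 0 of 5 and 0 of 3 listed genes past the fold at each site. ACTA2 was farthest in the first list, at 0.48 and -0.39, and GPR17 (-0.44) and PDGFRA (-0.31) in the second. Below the lesion the mature oligodendrocyte markers had a median of 0.14 and the endothelial markers -0.12. Of the endothelial markers, 0 of 6 passed the fold above the lesion, where ESAM was farthest at -0.20, and 1 of 6 below it, CDH5 at -0.61. LUM was the fibroblast marker farthest from equality at both sites, at -0.52 and -2.95. The spinal cord position genes had medians of 0.11 above and 0.12 below, with HOXA9 (0.47) and HOXD10 (-0.52) farthest. The part of these cell types in the values of the ADAMTS proteases was not tested.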
